A study of Mus musculus with 10 samples.

Results

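The 26S proteasome is the enzyme complex that breaks down proteins tagged with ubiquitin, and its genes were compared between atrial and ventricular cardiomyocytes, the beating muscle cells of the heart's upper and lower chambers. The genes were taken by symbol: every symbol of the deposited tables that starts with Psm, a letter from a to g and a number, pseudogenes excluded. This gave 50 genes among 25239 symbols, and no pseudogene had matched. They lie on 16 chromosomes, 10 of them on chromosome 11. The check by function left 49 proteasome genes, because Psmc3ip, which encodes a meiotic recombination factor named for its binding to the Psmc3 protein, matches by its prefix only. The mice were wild type (WT), with no transgene, Cre driver or treatment given in the labels, and there were 5 libraries of total RNA per chamber. The labels give neither the age, sex and strain of the mice nor how the cells were isolated. Whether each library stands for its own animal is not stated either, so a p-value here measures library-to-library spread, and some of that spread may be technical.

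The core particle, called 20S, is a barrel of stacked rings built from alpha subunits (Psma genes) and beta subunits (Psmb genes), and the proteolytic sites sit on the beta subunits encoded by Psmb5, Psmb6 and Psmb7. Cells exposed to interferon gamma, and immune cells at rest, can build an immunoproteasome in which Psmb8, Psmb9 and Psmb10 products take the places of Psmb5, Psmb6 and Psmb7 products, which changes the peptides made for display on MHC class I. The 19S regulatory particle caps the barrel, with Psmc ATPases that unfold the substrate and Psmd subunits that bind and remove ubiquitin. Psmg products and some Psmd products are chaperones that assemble the particles, and Psme products are alternative caps. In heart muscle the proteasome is the main route for removing damaged and short-lived proteins and acts in the turnover of contractile proteins.

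Recovered reads per library ranged from 1790402 to 12842635. Replicates 1 and 2 of both chambers stood apart from replicates 3 to 5, with the ribosomal RNA precursor Rn45s at 0.215% to 0.480% of reads in the former and 23.1% to 29.8% in the latter. Genes detected numbered 21576 in atrial replicate 1, 19232 in ventricular replicate 1 and 15950 to 16618 in the other libraries. Pearson correlations of log2 values between replicates were 0.892 to 0.994 in atrial and 0.870 to 0.993 in ventricular libraries. All 4 atrial markers were called higher in atrial libraries and all 3 ventricular markers in ventricular libraries, while 0 of 6 general cardiomyocyte markers were called (limma; edgeR also called 0, 1 had an unadjusted limma p under 0.05, and the paired test called 2). Markers of other cells were also present. Epicardial markers summed to 2615 to 6305 normalized reads in atrial and 671 to 1907 in ventricular libraries, and smooth muscle and pericyte markers to 1647 to 6469 and 8964 to 15443. Fibroblast markers summed to 13845 to 32936 in atrial and 5775 to 49629 in ventricular libraries, endothelial markers to 803 to 3150 and 258 to 1488, and neuronal and glial markers to 43.1 to 92.4 and 30.7 to 65.7. The part of these cells in the proteasome values was not tested. In such bulk samples, fewer cells of a type and less RNA per cell cannot be told apart.

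Most proteasome genes lay slightly lower in atrial libraries, few of them passed the test, and Psmb10 stood far from the others. Values are normalized reads, which are reads per gene divided by a scaling factor of the library, and differences are atrial minus ventricular on the log2(normalized reads + 1) scale. Of the 50 genes, 47 averaged at least 10 normalized reads and were tested. Psmb8, Psmb9 and Psmb11 did not reach that level. The test called 4 of the 47 at an adjusted p of 0.05 (limma, Benjamini-Hochberg over all genes tested), which is 8.51%, where 14.7% of all 12422 genes tested were called. All 4, Psmb10, Psma6, Psmb7 and Psme1, were higher in ventricular libraries, a direction in which 6.56% of all genes were called. None was called higher in atrial libraries by limma, where 8.12% of all genes were, and 0 estimates toward atrial had an unadjusted p under 0.05. The estimate was below 0 for 42 of the 47 genes, against 51.3% of all genes tested, and for 40 to 42 of them under the other scalings of the libraries. The edgeR test on recovered reads also called 4 members toward ventricular libraries (7.37% of all genes) and 0 toward atrial libraries (8.83%; 16.2% in either direction), and DESeq2 called 8 (9.81% of all genes) and 0 (10.9%; 20.7% in either direction). The median difference was -0.19, with a range of -2.23 to 0.31, beside a median of -0.01 over all genes.

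With libraries of the same replicate number treated as pairs, 12 of the 47 genes were called, all higher in ventricular libraries, beside 32.3% of all genes tested in either direction and 16.0% in that one (16.3% in the other). These were the 4 above and Psma4, Psmb3, Psmb6, Psmd8, Psme2b, Psme3, Psmg1 and Psmg4. Without the pairing the adjusted p of limma was 0.539 for Psma4, 0.0873 for Psmd8 and 0.123 for Psmg1, and with it 0.0463, 0.0241 and 0.0334. In 25 genes the atrial value was the lower one in every one of the 5 pairs, which held for 20.7% of all genes, and in 0 genes it was the higher one in every pair (20.2% of all genes). Groups did not overlap for 4 genes, all higher in ventricular libraries, where 6.55% of all genes did so, and for 0 genes toward atrial libraries (7.84% of all genes). They were Psmb10, Psma6, Psmb7 and Psmg2, the last of which is named after its values were seen. The 5 genes with an estimate above 0 were Psmb1, Psmd5, Psme4, Psmf1 and Psmg3, and none of them was called. Fitted with library set as a term, 15 members were called toward ventricular libraries, beside 31.8% of all genes in either direction and 15.8% and 16.0% toward ventricular and atrial libraries. Calls were few in the smaller set and many in the larger one. Replicates 1 and 2 alone called 1 member, Psmb10 (5.14% of all genes, 2.04% toward ventricular and 3.09% toward atrial libraries), with a median difference of -0.20. Replicates 3 to 5 alone, which called 52.8% of all genes, called 24 members higher in ventricular libraries (26.6% of all genes) and 1, Psme4, higher in atrial libraries (26.2%), with a median of -0.17.

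**Figure D1:**
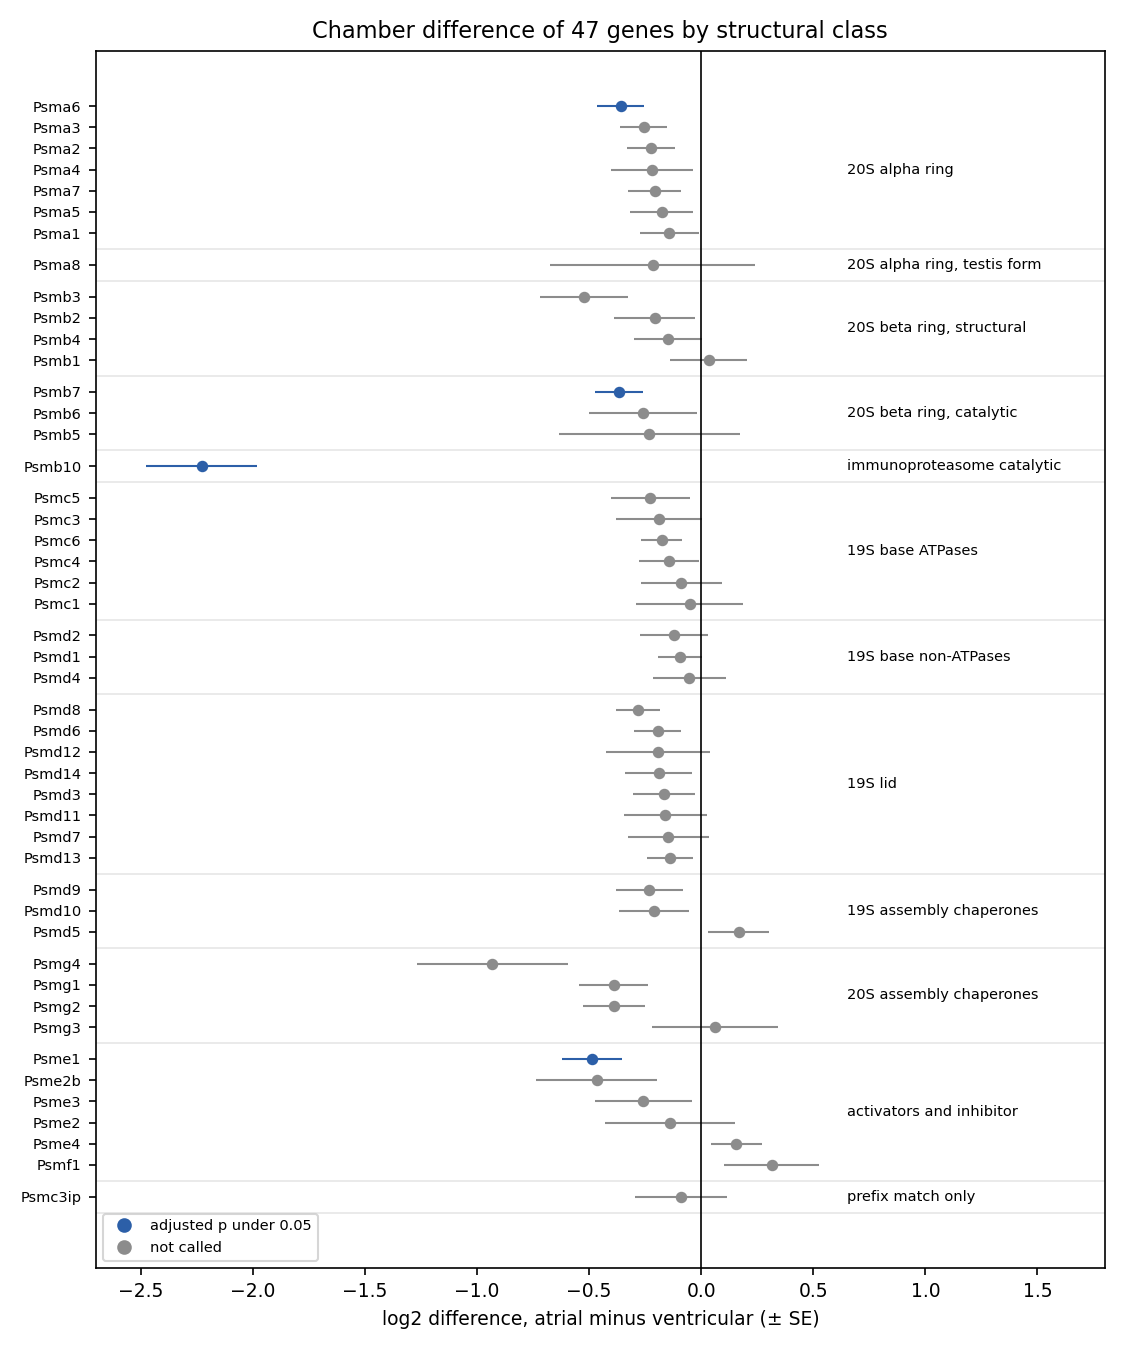
Log2 difference (atrial minus ventricular, horizontal axis) of the 47 tested genes, grouped by structural class, with bars of 1 SE; blue marks genes with an adjusted p under 0.05. Most points lie a little left of 0 and Psmb10 lies at -2.23.

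The 20S core was described over its 14 constitutive subunits. Of these, 2 were called, both higher in ventricular libraries, a direction in which 6.56% of all genes tested were called. Estimates were below 0 for 13 of 14, against 51.3% of all genes, and the median difference was -0.22. The 7 alpha subunits ranged from -0.36 to -0.14, with Psma6 called. The 4 structural beta subunits ranged from -0.52 to 0.03 with none called by limma, and the 3 constitutive catalytic subunits ranged from -0.37 to -0.23 with Psmb7 called. Paired by replicate number, 5 of the 14 were called, all higher in ventricular libraries (16.0% of all genes).

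Psma6, a subunit of the alpha ring (chromosome 12, 55384222 to 55418454, GRCm38), had 625, 666, 809, 779 and 723 normalized reads in atrial replicates 1 to 5. In ventricular replicates 1 to 5 it had 951, 834, 921, 938 and 966. Every ventricular value lay above every atrial one. The means were 721 ± 76.6 and 922 ± 52.2 (SD, n = 5 each), 1.28-fold higher in ventricular libraries, with a log2 difference of -0.36 ± 0.10 (SE; limma, adjusted p = 0.0399).

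Psmb7, whose product carries the trypsin-like site of the constitutive core (chromosome 2, 38588036 to 38644087), had 1091, 1473, 1483, 1350 and 1386 normalized reads in the atrial libraries. The ventricular libraries held 1702, 1865, 1719, 1662 and 1754. The groups did not overlap. The means of 1357 ± 159 and 1740 ± 76.9 differed by -0.37 ± 0.11 (limma, adjusted p = 0.0436), 1.28-fold higher in ventricular libraries. The gene overlaps Nek6 on the opposite strand by 6571 bases. Nek6 averaged 96.6 normalized reads, and as the strand setting of the counting is not given, reads in the shared stretch cannot be told apart. The calls of Psma6 and Psmb7 were both narrow. Psma6 lost its call in 8 of 10 fits that left out 1 library and kept it without atrial replicate 3 or ventricular replicate 2 (adjusted p over the 10 fits 0.0368 to 0.0985). Psmb7 lost its call in 9 of 10 and kept it without atrial replicate 2 (adjusted p 0.0408 to 0.0951).

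Psmb6, whose product has the caspase-like site, had 611, 714, 454, 409 and 382 normalized reads in atrial libraries. Its ventricular values were 823, 834, 486, 518 and 440. Replicates 1 and 2 were the highest of both chambers, and within every pair the atrial value was the lower one, while the groups overlapped. The difference of -0.26 ± 0.24 was not called (limma, adjusted p = 0.588) and was called with the pairing (adjusted p = 0.0242). Psmb5, whose product has the chymotrypsin-like site, moved the other way between library sets, with 23.4, 48.9, 77.3, 71.9 and 63.7 in atrial libraries. Its ventricular values were 45.0, 29.2, 94.2, 95.6 and 77.8. The groups overlapped, and the difference of -0.23 ± 0.40 was not called (limma, adjusted p = 0.817; paired, 0.464). For Psmb5, Psmb6 and Psmb7 the annotation holds processed pseudogenes that are not among the symbols of the tables, so reads could be split between copies.

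Psmb3, a structural beta subunit, was among the 3 largest differences that were not called. It had 97.9, 128, 194, 156 and 107 normalized reads in atrial and 166, 161, 227, 215 and 193 in ventricular libraries, 1.41-fold higher in the latter, with overlap. The difference was -0.52 ± 0.20 (limma, adjusted p = 0.110; paired, 0.00872). Psmb1, the only constitutive core subunit with an estimate above 0, is a structural subunit of the beta ring and differed by 0.03 ± 0.17 (limma, adjusted p = 0.948), a sign that turned in 5 of the 10 fits without 1 library and in replicates 1 and 2 alone.

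The tissue-restricted subunits were low. Psma8, the testis form of an alpha subunit, had 19.3, 2.88, 8.52, 11.2 and 10.3 normalized reads in atrial and 17.3, 14.6, 9.91, 7.35 and 7.41 in ventricular libraries. The groups overlapped (difference -0.22 ± 0.46; limma, adjusted p = 0.854), and the sign turned with the test and the library set used. Psmb11, the thymus form of a catalytic subunit, had 13 recovered reads in all atrial and 5 in all ventricular libraries together, 10 of the 13 in atrial replicate 1, and was not tested.

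Of the 3 immunoproteasome subunits, only Psmb10 had enough reads to test. It was 4.76-fold higher in ventricular libraries, the largest difference among the 47 tested genes, while Psmb8 and Psmb9 were almost without reads in both chambers. Promoter windows are printed for Psmb10, the subunit with the largest difference, for Psmb8, its near-silent partner, for Psmb6, a constitutive catalytic subunit, and for Psme1, the interferon-inducible cap subunit described below. Each holds 250 bases before to 50 bases after the RefSeq start (GRCm38.p6), read 5′ to 3′ on the gene's strand. Capitals mark a match, on either strand, to 1 of 4 motifs, which are TGACNNNGC (antioxidant response element, bound by Nfe2l1 and Nfe2l2), CCAAT (bound by NF-Y), GAAA followed by any 2 bases and GAAA again (interferon-stimulated response element) and TTCNNNGAA (gamma-activated site). In the 3 windows that hold a match, it is the only one, so no motifs overlap there.
Psmb10, chr8:105938343-105938642, minus strand: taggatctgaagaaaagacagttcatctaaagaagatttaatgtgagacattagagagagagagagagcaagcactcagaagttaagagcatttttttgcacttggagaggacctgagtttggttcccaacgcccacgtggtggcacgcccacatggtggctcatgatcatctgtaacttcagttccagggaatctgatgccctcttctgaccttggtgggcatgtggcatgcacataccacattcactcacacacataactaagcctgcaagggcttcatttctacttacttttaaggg
Psmb8, chr17:34197945-34198244, plus strand: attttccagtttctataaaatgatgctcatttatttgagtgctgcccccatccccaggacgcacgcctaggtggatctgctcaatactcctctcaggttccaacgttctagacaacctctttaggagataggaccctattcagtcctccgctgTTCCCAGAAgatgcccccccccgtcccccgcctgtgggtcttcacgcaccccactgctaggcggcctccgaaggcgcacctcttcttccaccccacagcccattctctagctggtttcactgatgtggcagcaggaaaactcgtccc
Psmb6, chr11:70525107-70525406, plus strand: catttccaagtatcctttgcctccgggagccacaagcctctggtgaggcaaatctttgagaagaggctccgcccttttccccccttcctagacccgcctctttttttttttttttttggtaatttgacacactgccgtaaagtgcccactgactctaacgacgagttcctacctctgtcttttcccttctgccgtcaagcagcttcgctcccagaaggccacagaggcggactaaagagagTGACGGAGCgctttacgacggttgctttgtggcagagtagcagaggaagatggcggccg
Psme1, chr14:55578244-55578543, plus strand: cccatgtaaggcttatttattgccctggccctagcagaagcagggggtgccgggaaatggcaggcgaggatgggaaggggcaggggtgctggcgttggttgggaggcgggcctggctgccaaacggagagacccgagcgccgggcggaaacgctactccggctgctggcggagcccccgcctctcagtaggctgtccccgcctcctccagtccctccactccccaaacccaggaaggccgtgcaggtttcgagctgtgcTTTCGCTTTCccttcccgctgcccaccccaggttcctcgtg
The Psmb10 window held none of these letters. Psmb8 had the gamma-activated site 97 bases before the start, Psmb6 the antioxidant response element 9 bases before it, and Psme1 the interferon-stimulated response element on the opposite strand from 9 bases after it. Windows were at hand for 42 of the 50 genes. TGACNNNGC was in 6 of these (14.3%) and in 13.99% of the windows of all 27025 genes. CCAAT was in 15 (35.7%; 41.1% of all), the interferon-stimulated response element in 5 (11.9%; 3.99% of all) and TTCNNNGAA in 3 (7.14%; 9.55% of all). A match describes letters in the window and says nothing of binding.

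Psmb10 encodes the inducible counterpart of the trypsin-like subunit (ENSMUSG00000031897, chromosome 8, 105935735 to 105938444). It had 59.3, 96.4, 49.4, 51.9 and 49.6 normalized reads in atrial replicates 1 to 5. It had 401, 378, 246, 206 and 229 in ventricular replicates 1 to 5. The lowest ventricular value was more than double the highest atrial one, and replicates 1 and 2 lay above replicates 3 to 5 in both chambers. The means were 61.3 ± 20.04 and 292 ± 90.6 (SD, n = 5 each), a log2 difference of -2.23 ± 0.25 (limma, adjusted p = 0.000174; lower in atrial libraries in 5 of 5 pairs). Within replicates 1 and 2 alone it was -2.35, within replicates 3 to 5 alone -2.15, and the test of the difference between library sets was not called (-0.20 ± 0.26; limma, adjusted p = 0.733). Psmb10 was called in each of the 10 fits without 1 library (adjusted p 9.86e-05 to 0.000888, difference -2.40 to -2.10) and under every other setting tried. No gene of the tables overlaps it. Its nearest neighbours, Lcat and Ctrl, lie 1107 and 1873 bases away and averaged 8.21 and 2.50 normalized reads.

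**Figure D2:**
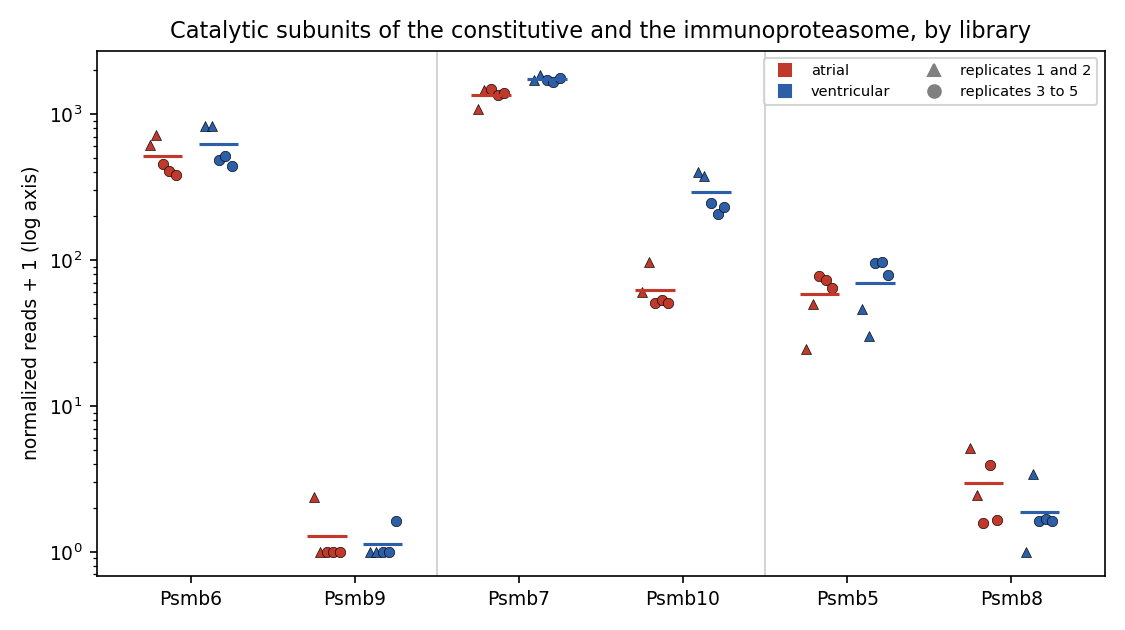
Normalized reads + 1 (log axis) of the 3 constitutive catalytic subunits, each beside its inducible counterpart, in every library; triangles are replicates 1 and 2, circles replicates 3 to 5, and bars group means. Psmb10 separates the chambers completely, and Psmb8 and Psmb9 lie near the bottom of the axis.

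Psmb8, the inducible counterpart of Psmb5 (chromosome 17, 34197721 to 34201454), had 4.14, 1.44, 0.568, 2.95 and 0.644 normalized reads in atrial libraries. Its ventricular values were 0, 2.44, 0.620, 0.668 and 0.618. These rest on 11 and 4 recovered reads in all, and no fold was formed. Psmb9, the counterpart of Psmb6 (chromosome 17, 34181987 to 34187764), had 1 read in atrial replicate 1, 1 in ventricular replicate 5 and 0 in the other 8 libraries. A count of 0 leaves room for as many as 3 reads, equal to between 1.70 and 10.4 normalized reads across the libraries. A difference in Psmb9 within these limits was therefore not detectable at this depth. Psmb9 overlaps Tap1, the peptide transporter gene on the opposite strand, by 212 bases, and Tap1 averaged 10.7 normalized reads.

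Within each library, Psmb10 was also set against Psmb7, the subunit it replaces, per kilobase of exon. Psmb10 stood at 4.81, 5.80, 2.95, 3.40 and 3.16 per 100 of Psmb7 in atrial replicates 1 to 5. In ventricular replicates 1 to 5 it stood at 20.9, 17.9, 12.7, 10.96 and 11.6. All ventricular ratios lay above all atrial ones, and within each chamber the 2 highest belonged to replicates 1 and 2. The mean log2 ratio differed by -1.88 between the chambers, atrial minus ventricular.

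Immune cells are a known source of immunoproteasome transcripts, and their markers were therefore read beside Psmb10. The 12 leukocyte markers summed to 78.5 to 182 normalized reads in atrial and 26.0 to 156 in ventricular libraries. C1qa, Cd52, Cd79a, Fcer1g and Tyrobp had a median of 0 over the 10 libraries. Of the 3 leukocyte markers with enough reads to test, 1 was called, Csf1r, which was higher in atrial libraries (57.4 against 15.2 normalized reads on average) and overlaps Hmgxb3 on the opposite strand, with which it may share reads. Smooth muscle and pericyte sums did not overlap between chambers and were higher in ventricular libraries, with Acta2 and Myh11 called among 6 markers tested. Acta2 made up most of the ventricular sum, with means of 1593 in atrial and 8129 in ventricular libraries. Cnn1 of the same list went the other way, with means of 698 ± 579 in atrial and 174 ± 102 in ventricular libraries (1.76 ± 0.58; limma, adjusted p = 0.0696; paired, 0.0001), and edgeR (0.0442) and DESeq2 (0.00471) called it. Of 7 fibroblast markers, Lum and Pdgfra were called higher in ventricular libraries. Estimates were below 0 for 5 of the 7, while Col1a2 (0.18) and Col3a1 (0.41) had uncalled estimates toward atrial libraries. The median of the list was -1.08 in replicates 3 to 5 and 0.59 in replicates 1 and 2. The differences of Lum and Pdgfra changed between library sets (2.11 ± 0.37 and 1.99 ± 0.27, limma, adjusted p = 0.0129 and 0.00363). The part of these cells in the Psmb10 values was not tested.

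The alternative caps and the inhibitor were mixed. Of 6 genes, 1 was called by limma and 3 with the pairing, all toward ventricular libraries (6.56% and 16.0% of all genes). Differences ranged from -0.49 to 0.31. Psme1 and Psme2 encode the subunits of the interferon-inducible cap that opens the core without ATP. Psme1 (chromosome 14, 55578123 to 55581529) had 457, 628, 493, 488 and 467 normalized reads in atrial libraries. Ventricular values were 792, 831, 710, 592 and 628. Atrial replicate 2 lay above ventricular replicate 4, so the groups overlapped, and the atrial value was lower in 5 of 5 pairs. The means of 506 ± 69.4 and 711 ± 103 gave a 1.40-fold higher level in ventricular libraries, with a difference of -0.49 ± 0.13 (limma, adjusted p = 0.0316). Psme1 kept its call without atrial replicate 2 and without ventricular replicate 4 or 5, and lost it in the other 7 such fits (adjusted p over the 10 fits 0.0128 to 0.0822). It shares 14 bases with Emc9 on the opposite strand, which averaged 80.2 normalized reads.

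Psme2, the partner of Psme1 in the cap, had 241, 337, 182, 170 and 145 normalized reads in atrial and 270, 400, 181, 193 and 157 in ventricular libraries. The groups overlapped widely (difference -0.14 ± 0.29; limma, adjusted p = 0.854; paired, 0.209). Psme2b, a near-identical intronless copy of Psme2 with which it may share reads, averaged 37.0 ± 10.9 in atrial and 52.7 ± 20.3 in ventricular libraries. Psme2b also overlaps Gm12185 by 837 bases, its whole length, and 9930111J21Rik1 by 41 bases, both on the same strand. These neighbours averaged 2.94 and 1.08 normalized reads. The Psme2b difference of -0.47 ± 0.27 is uncertain for these reasons (limma, adjusted p = 0.327; paired, 0.0478). The difference in Psme1 was not tested against that in Psme2.

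Psme3, which forms a nuclear cap that does not depend on interferon, averaged 287 ± 57.6 normalized reads in atrial and 348 ± 91.3 in ventricular libraries (difference -0.26 ± 0.22; limma, adjusted p = 0.539; paired, 0.0322). Psme4, the large nuclear cap known for the breakdown of acetylated histones, averaged 1475 ± 170 in atrial and 1321 ± 121 in ventricular libraries. The difference of 0.16 ± 0.11 was not called (limma, adjusted p = 0.465), and within replicates 3 to 5 it was 0.25 (adjusted p = 0.000586). Psmf1, an inhibitor of the core in the test tube, had the highest estimate of all members toward atrial libraries, 107 ± 16.3 against 87.8 ± 24.4, and was not called (0.31 ± 0.21; limma, adjusted p = 0.415).

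None of the 17 subunits of the 19S particle was called by limma or by edgeR, which called 14.7% and 16.2% of all genes. Only 1, Psmd8, had an unadjusted limma p under 0.05 toward ventricular libraries, as had 1565 of all 12422 genes. It was called by DESeq2 (9.81% of all genes in that direction). All 17 estimates were below 0, against 51.3% of all genes tested. They lay within a narrow range of -0.28 to -0.05, with a median of -0.16. The 6 ATPases of the base (Psmc1 to Psmc6), which thread the substrate into the core, ranged from -0.23 to -0.05. The 3 other base subunits, Psmd1, Psmd2 and the ubiquitin receptor Psmd4, ranged from -0.12 to -0.05. The 8 lid subunits, which include the ubiquitin-cleaving Psmd14, ranged from -0.28 to -0.14. Psmd8 was the 1 subunit called with the pairing (16.0% of all genes toward ventricular libraries). Summed over the 17 genes, atrial libraries held 12789 to 14223 normalized reads and ventricular libraries 14271 to 15499, without overlap. Summed over all 31 constitutive core and 19S subunits, the 5 atrial libraries held 20293, 23107, 21518, 20629 and 19769 and the 5 ventricular libraries 24662, 25446, 23454, 22944 and 22925. In these sums atrial replicate 2 lay above the 2 lowest ventricular libraries. As a share of all normalized reads of the library, the 31 genes overlapped between the chambers. They made up 0.266% to 0.412% in atrial and 0.295% to 0.424% in ventricular libraries. Long and abundant genes weigh most in such sums.

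The 4 chaperones of the core, Psmg1 to Psmg4, had the lowest median of any class with several tested genes, -0.39. None was called by limma or edgeR, which called 14.7% and 16.2% of all genes. An unadjusted limma p under 0.05 toward ventricular libraries was found for 3, and for 1565 of all 12422 genes. DESeq2 called Psmg1 and Psmg2 (9.81% of all genes toward ventricular libraries). Psmg1 and Psmg4 were called with the pairing (16.0% of all genes in that direction). Psmg4, which helps to build the alpha ring, had 124, 190, 77.3, 76.1 and 60.5 normalized reads in atrial libraries. Its ventricular values were 266, 285, 140, 148 and 138. Replicates 1 and 2 were the highest in ventricular and in atrial libraries, and within each library set the chambers did not overlap. Psmg4 was 1.85-fold higher in ventricular libraries on average (difference -0.93 ± 0.34; limma, adjusted p = 0.0983; paired, 0.000391), the second largest difference after Psmb10. Psmg2 had 93.8, 119, 112, 120 and 128 in atrial and 190, 139, 145, 136 and 144 in ventricular libraries, without overlap (-0.39 ± 0.14; limma, adjusted p = 0.0885; paired, 0.0635). Psmg3 differed by 0.06 ± 0.28 (limma, adjusted p = 0.941).

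Of the 3 chaperones of the 19S base, Psmd5, Psmd9 and Psmd10, none was called by limma, edgeR, DESeq2 or with the pairing. These fits called 14.7%, 16.2%, 20.7% and 32.3% of all genes. None of the 3 had an unadjusted limma p under 0.05, and their differences ranged from -0.23 to 0.17. Psmd5 had the only estimate above 0 of the 3, with means of 138 ± 19.9 normalized reads (atrial) and 122 ± 12.8 (ventricular; 0.17 ± 0.13; limma, adjusted p = 0.523). Psmc3ip, which is no proteasome gene, averaged 67.4 ± 17.2 and 70.6 ± 11.5 (-0.09 ± 0.21; limma, adjusted p = 0.866), and leaving it out changed no count of calls.

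**Figure D3:**
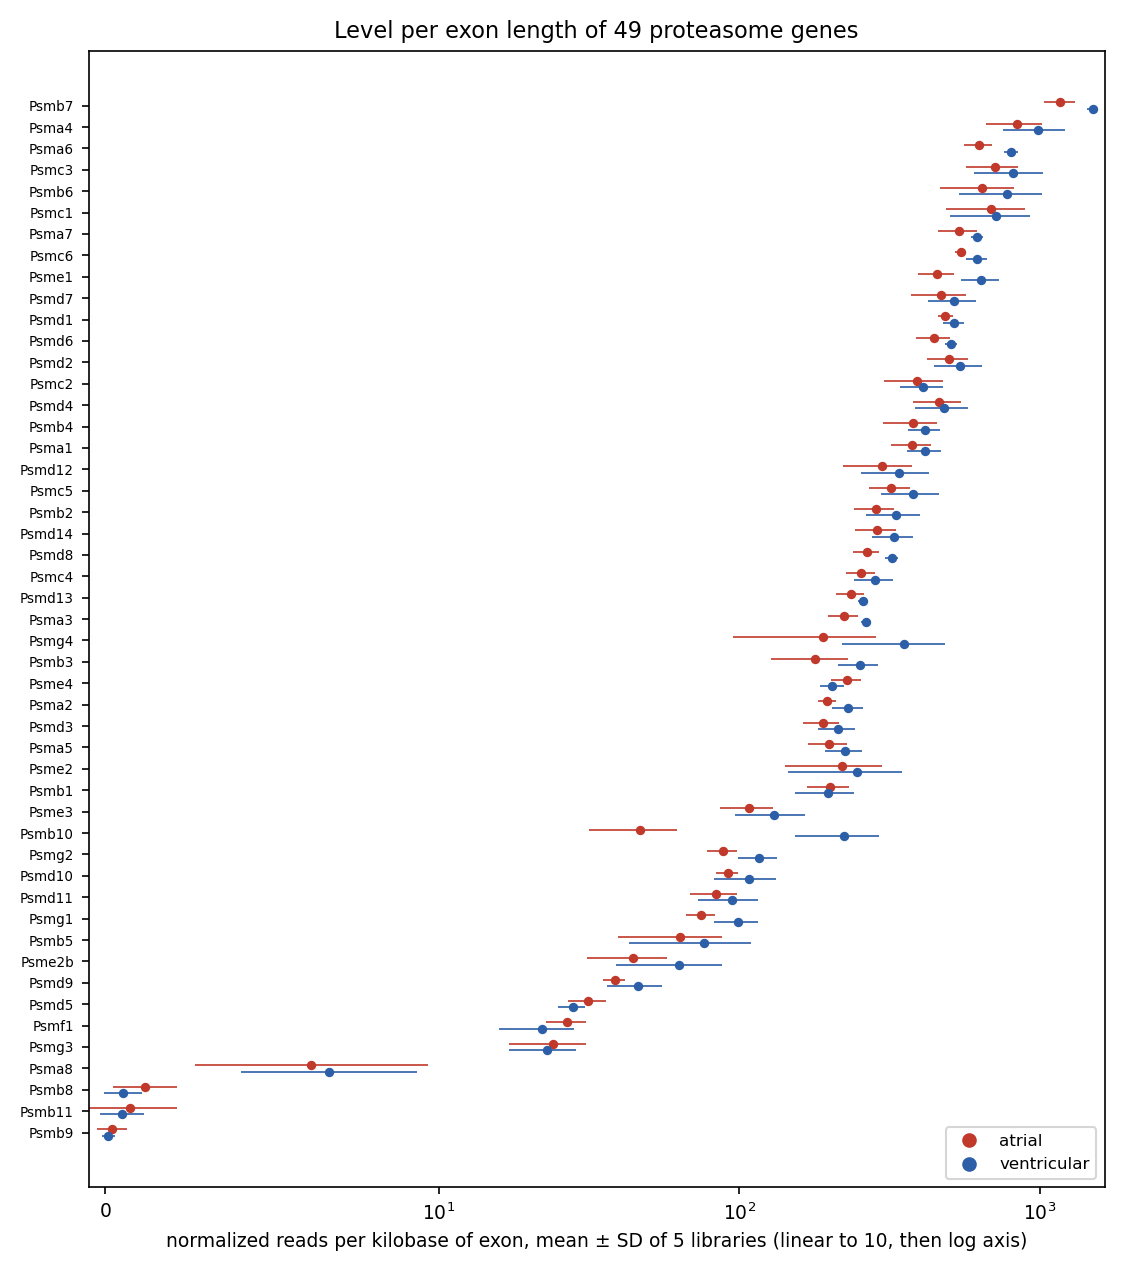
Normalized reads per kilobase of exon (horizontal axis, linear to 10 and logarithmic above) of the 49 proteasome genes, mean and SD of 5 libraries per chamber. Psmb7 is highest, Psmb8, Psmb9 and Psmb11 are lowest, and the chamber means of Psmb10 lie far apart.

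Levels of different genes were compared per kilobase of exon, as medians over the 10 libraries. Psmb7 was the highest at 1356 normalized reads per kilobase (range 941 to 1607). Psma4, an alpha subunit, followed at 838, Psma6 at 716, Psmc3, a base ATPase, at 676 and Psmb6 at 629. The ranges of Psma4 (671 to 1322) and Psma6 (544 to 842) overlapped that of Psmc3 (581 to 1078). As the genes share their libraries, overlap of ranges does not settle their order, which was not tested within libraries. Psmb5 stood at 75.4, below the other catalytic subunits with which it occurs in equal numbers in the particle. Psmb10 stood at 46.8 in atrial and 223 in ventricular libraries on average. Among tested genes the lowest was Psma8 at 5.97. Psmg3 stood at 24.4 and Psmf1 at 25.1, and the untested Psmb8, Psmb11 and Psmb9 at 0.403, 0.154 and 0.

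Differences between the library sets were often larger than those between the chambers. The median absolute difference between replicates 1 and 2 and replicates 3 to 5 was 0.356 on the log2 scale over the 47 genes, and 0.430 over all genes tested. In 29 of the 47 genes it was larger than the chamber difference, as it was in 7691 of the 12422 genes tested. The chamber difference itself was tested for a change between the library sets. None of the 47 genes was called (limma; lowest adjusted p = 0.169, and 4 genes at an unadjusted p under 0.05), where 5.21% of all genes were.

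**Figure D4:**
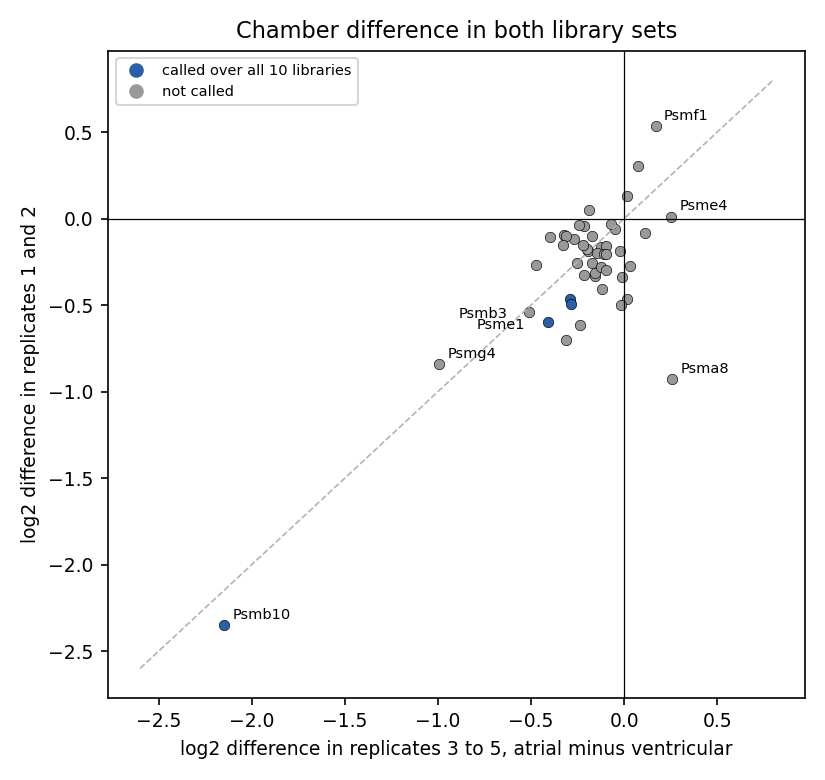
Log2 chamber difference (atrial minus ventricular) of each tested gene in replicates 3 to 5 (horizontal) and in replicates 1 and 2 (vertical), with the diagonal of equal differences dashed. Psmb10 lies at -2.15 and -2.35, Psmg4 at -0.99 and -0.84, and most other genes cluster below 0 in both.

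Other genes of the pathway came from lists chosen for their roles. Proteasome-bound and assembly genes outside the Psm symbols had 1 of 11 called, higher in ventricular libraries (6.56% of all genes), with a median of -0.17. It was Sem1, a small lid subunit, with 650, 910, 781, 607 and 520 normalized reads in atrial and 1280, 1311, 956, 994 and 957 in ventricular libraries, without overlap. The difference was -0.68 ± 0.17 (limma, adjusted p = 0.0204), 1.59-fold higher in ventricular libraries.

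Regulators of proteasome transcription had 0 of 10 called by limma, edgeR and DESeq2, which called 14.7%, 16.2% and 20.7% of all genes. With so few genes, 0 calls do not show that the regulators were alike in both chambers. None had an unadjusted limma p under 0.05. With the pairing, 1 was called in each direction (16.0% of all genes toward ventricular and 16.3% toward atrial libraries). Nfe2l1, the factor that raises proteasome genes when the proteasome is inhibited, averaged 1624 ± 335 normalized reads in atrial and 1677 ± 334 in ventricular libraries. Its difference of -0.05 ± 0.18 was not called (limma, adjusted p = 0.927) and changed sign with the libraries scaled to equal totals. Nfe2l2, the oxidative stress factor, differed by 0.17 ± 0.37 (limma, adjusted p = 0.860). Keap1, the adaptor that marks Nfe2l2 for breakdown, differed by -0.24 ± 0.13 (limma, adjusted p = 0.295; paired, 0.0429). Nfe2l3, a related factor, was 69.2 ± 22.5 in atrial and 44.4 ± 22.5 in ventricular libraries (0.72 ± 0.35; limma, adjusted p = 0.226; paired, 0.0141).

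Upstream of the proteasome, Vcp, the ATPase that pulls ubiquitinated proteins out of complexes, had 1079, 1154, 1161, 1146 and 1169 normalized reads in atrial libraries. Its ventricular values were 1536, 1511, 1554, 1357 and 1471. The groups did not overlap. The means of 1142 ± 36.3 and 1486 ± 78.7 differed by -0.38 ± 0.09 (limma, adjusted p = 0.0125), 1.30-fold higher in ventricular libraries.

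Of 12 ubiquitin ligases of muscle and protein quality control, 1 was called, higher in atrial libraries, a share near the background in that direction, and the median was 0.01. Fbxo32, the muscle ligase known from atrophy, had 629, 665, 695, 745 and 710 normalized reads in atrial and 426, 424, 461, 393 and 421 in ventricular libraries. It was 1.62-fold higher in atrial libraries without overlap (0.70 ± 0.09; limma, adjusted p = 0.000536).

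Genes of antigen display and of the interferon response, with which the immunoproteasome is usually induced, had calls toward atrial libraries only, by limma and with the pairing. Of all genes tested, 8.12% were called in that direction by limma and 16.3% with the pairing. Psmb10 was called in the other direction, and a link between these genes and Psmb10 was not tested. Of 11 MHC class I processing genes tested, 1 was called by limma, near the share of all genes, and 3 with the pairing. Estimates were above 0 for 11 of 11, and the median was 0.23. Tapbp, which loads peptides on MHC class I, had atrial and ventricular means of 285 ± 19.8 and 170 ± 41.8 normalized reads (0.77 ± 0.15; limma, adjusted p = 0.00619). Of 10 interferon response genes tested, 3 were called (5 with the pairing), 2 estimates were below 0 and the median was 0.35. Bst2, Ifit1, Ifit3 and Isg15 of this list were too low to test, as was Nlrc5 of the MHC class I list. Irf1, a transcription factor known to act on immunoproteasome genes, had 66.2, 86.4, 222, 222 and 211 in atrial and 34.6, 46.3, 59.5, 49.5 and 48.8 in ventricular libraries. Irf1 was higher in every atrial library than in any ventricular one, 3.38-fold on average (1.58 ± 0.36; limma, adjusted p = 0.0121), and its difference was larger in replicates 3 to 5 than in replicates 1 and 2 (change -1.14 ± 0.26; limma, adjusted p = 0.0324). Gbp2, an interferon-induced GTPase, was 3.40-fold higher in atrial libraries (188 ± 65.4 against 55.3 ± 18.9; 1.72 ± 0.36; limma, adjusted p = 0.00820). Irgm1, another interferon-induced GTPase, differed by 0.71 ± 0.20 (limma, adjusted p = 0.0346). Epicardial marker sums, given above, were higher in atrial libraries without overlap, and limma called 5 of 6 markers in that direction (8.12% of all genes). Endothelial sums reached higher values in atrial libraries but overlapped. Of 8 endothelial markers, 2 were called toward atrial libraries and 2 had estimates below 0. The part of epicardial and endothelial cells in the antigen display and interferon values was not tested.

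**Figure D5:**
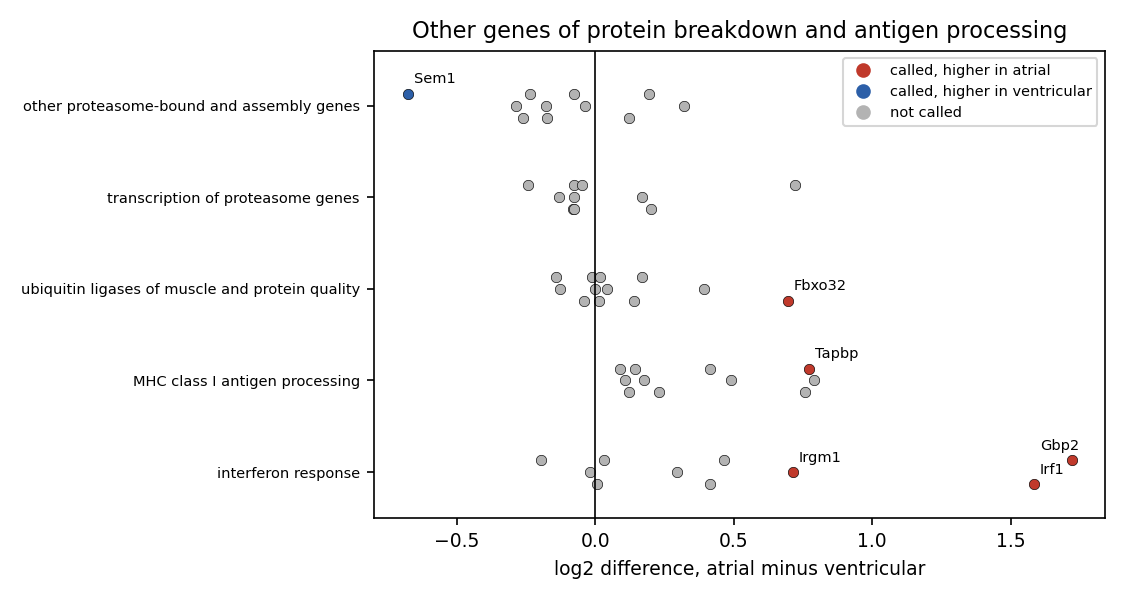
Log2 difference (atrial minus ventricular) of the tested genes of 5 pathway lists, 1 point per gene; blue and red mark genes called higher in ventricular and in atrial libraries. Sem1 is called on the left, and Fbxo32, Tapbp, Irgm1, Irf1 and Gbp2 on the right.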

How the data were processed

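Trizol-extracted RNA of WT mouse cardiomyocytes was sequenced from ScriptSeq v2 libraries, per the labels' protocols. Trimmomatic, HISAT2, featureCounts and the GRCm38 (mm10) build are named in the submitters' processing notes; their versions, the annotation and the strand setting were not given in the sources used here. Each deposited signal per gene is reads divided by a DESeq2 size factor of the library, per the file headers. Whole reads were recovered for 100% of values within 0.01.

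Genes averaging 10 or more normalized reads were tested with limma 3.58.1 (R 4.3.3; trend and robust variance, two-sided, Benjamini-Hochberg at 0.05) on log2(normalized reads + 1), without a replicate block. This scale understates changes of low genes. The script was tested on simulated data that held no difference between library sets and no pairing, so that check does not cover either. Same-numbered libraries deviated together from their chamber means (correlations 0.582, 0.637, 0.623, 0.556 and 0.631). These deviations still hold the difference between the library sets, and libraries of unlike number within a set were not compared. The correlations therefore cannot show that the numbers are true pairs. Pairing by number is an assumption, and paired results are printed where a call depends on it. The recovered reads were also tested with edgeR 4.0.16 and DESeq2 1.42.0. Positions and exon lengths (basic protein-coding transcripts) are from GENCODE M21, promoters from RefSeq GRCm38.p6. Limits at 0 reads cover counting error only.

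The members and gene lists were chosen with earlier results of these data known. Named were all called members, the catalytic pairs, tissue-restricted forms, caps and inhibitor, the 3 largest uncalled differences, extremes per kilobase, Psmc3ip, up to 4 called genes of each pathway list (otherwise the 2 smallest p), Nfe2l1 and Nfe2l2. Further members were named after their values were seen. Shfm1, AI314180, Ufd1l and Paaf1 were listed and had no symbol in the tables; the first 3 are older names of Sem1, Ecpas and Ufd1, which were used. Some genes of these lists are not reported here.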

Additional observations from a re-analysis of the deposited data

Results flagged for a closer look

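A library stood apart from the other 4 of its chamber, by Dixon's ratio of gap to range, in 10 of 120 gene and chamber groups checked. Chance alone flags about 1 in 20 groups.

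Of the 7 member groups, 4 were atrial replicate 2 at the top. Psmb10 had 96.44 normalized reads there (next 59.31), Psme1 627.6 (next 492.5), Psma1, an alpha subunit, 590.2 (next 456.5) and Psme2b 56.14 (next 34.79). Without that library the Psmb10 difference was -2.40 and Psme1 kept its call. In ventricular replicate 1, Psmb2, a structural beta subunit, was lowest at 183.4 (next 294.9) and Psmg2 highest at 190.3 (next 145). Psmd9, a 19S chaperone, was highest in ventricular replicate 2 at 163.3 (next 111.6).

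Among pathway genes, atrial replicate 1 was lowest for Vcp at 1079 (next 1146), Gbp2 at 73.1 (next 199.3) and Nfe2l2 at 147.6 (next 404.5). These libraries belong to the shallower set of replicates 1 and 2, and the part of depth was not tested.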

How the results depend on the processing

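Psmb10 was called under every setting tried. The 4 calls toward ventricular libraries stayed 4 with pseudocounts of 0.5 and 5, a mean of at least 50, TMM scaling and edgeR. They became 1 without a filter, 1 with equal totals, 2 with equal totals without Rn45s and Lars2, 8 with DESeq2, 15 with library set as a term, 24 in replicates 3 to 5 (and 1 toward atrial), 1 in replicates 1 and 2, and 1 to 5 with 1 library left out. With the replicate block, 12 were called. Of the genes printed with both values, Psmb5, Psme2 and Psmg2 were called neither with nor without the block. The block changed the calls of the rest, and of no further gene named in the text. The cause of these changes was not tested; the subsets hold fewer libraries. The median of the members kept its sign, and the median of all genes moved from -0.01 to 0.06 with equal totals.

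Signs turned for small uncalled differences. Psma8 came to 0.028 with edgeR, 0.040 with DESeq2 and 0.26 in replicates 3 to 5, Psmc3ip to 0.032 there, Psmb1 to -0.084 in replicates 1 and 2, and Nfe2l1 to 0.020 with equal totals and 0.010 without Rn45s and Lars2. With 1 library left out, Psma8 ran from -0.47 to 0.13, Psmc3ip from -0.18 to 0.038, Psmb1 from -0.044 to 0.12, Nfe2l1 from -0.13 to 0.050, Psmb5 from -0.50 to 0.052, Psme2 from -0.32 to 0.066, Psmg3 from -0.10 to 0.23 and Nfe2l2 from -0.066 to 0.49. Depth limits Psmb8, Psmb9 and Psmb11, which rest on 1 to 13 reads per chamber.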
